A study of Homo sapiens with 4 samples.

Results

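The NRF2 antioxidant response genes described here are 10 genes: *NFE2L2*, which encodes the transcription factor NRF2, *KEAP1*, *HMOX1*, *GCLC*, *GCLM*, *NQO1*, *TXNRD1*, *SRXN1*, *SLC7A11*, and *OSGIN1*. They were 10 of 18066 genes tested, and every one of them had at least 10 counts in each of the 4 libraries. The group was chosen by values of these same libraries, since *HMOX1* and *GCLC* were among the strongest rises after treatment. All values of the 10 genes in the comparison of treated with untreated cells are therefore given as a description, without a test.

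RNA was sequenced from BT-16 and CHLA-266, established cell lines of atypical teratoid/rhabdoid tumor (AT/RT), a malignant brain tumor of early childhood, both assigned to the AT/RT-MYC subgroup. Each line gave 1 library of untreated cells and 1 library of treated cells. The treated cells received 1 drug per day on 3 consecutive days. These were 1 µM doxorubicin, then 5 µM etoposide, then 1 µM vincristine, with a change of medium between drugs. According to the methods, most cells died, and resistant cells grew again only weeks later. A treated library thus came from 1 culture of surviving cells. All 4 cultures shared a DMEM medium with serum, L-glutamine, and a supplement of insulin, transferrin, and selenous acid, and the labels placed all 4 libraries in 1 batch. The 2 cell lines served as the replicates of a condition, and no second culture of a line in the same condition was sequenced.

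NRF2 is held in the cytoplasm by KEAP1, the substrate adaptor of a CUL3 ubiquitin ligase, which passes newly made NRF2 to the proteasome. When reactive cysteines of KEAP1 are modified by oxidants or electrophiles, NRF2 accumulates, pairs with small MAF proteins in the nucleus, and binds antioxidant response elements in the control regions of its target genes. This switch acts on the protein and needs no change of *NFE2L2* RNA. The targets make glutathione, keep thioredoxin reduced, degrade heme, and reduce quinones, and doxorubicin is itself a quinone.

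The core of the antioxidant response element was searched as TGACNNNGC on both strands of the RefSeq promoter windows of GRCh38.p14, which reach from 250 bases before to 50 bases after an annotated start. Of the 10 genes, 8 had an entry, with 11 windows in all, and *HMOX1* and *SLC7A11* had none. Of these 11 windows, 4 held the motif, in *GCLM*, *KEAP1*, and *TXNRD1*, whereas 13.3% of all 35116 windows held it. The 11 windows held 6 matches, and none of them held the AP-1 motif TGACTCA. The matches shown are that of *GCLM*, the match of *KEAP1* with the same letters, and the first match at each of the 2 starts of *TXNRD1*, as the genome's plus strand with the motif in capitals and 10 bases on each side.
*GCLM*, chr1:93909446-93909474: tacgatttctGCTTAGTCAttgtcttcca
*KEAP1*, chr19:10502784-10502812: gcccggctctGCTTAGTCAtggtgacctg
*TXNRD1*, chr12:104215670-104215698: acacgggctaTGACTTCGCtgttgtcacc
*TXNRD1*, second start, chr12:104286920-104286948: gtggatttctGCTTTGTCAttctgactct
The motif of *GCLM* began 34 bases before the start and that of *KEAP1* 31 bases before a start. Both read TGACTAAGC, the same 9 letters, which 0.103% of all windows held, and this pair was chosen after the matches were seen. The remaining matches lay 54 bases before the start of *KEAP1* and across the first start of *TXNRD1*. In *GCLM*, 1 of the 9 bases lay in an exon annotated by GENCODE. All 9 lay in annotated exons in *KEAP1* and at the second start of *TXNRD1*, and none did at the first start of *TXNRD1*. A match of letters is a description of the window and shows no binding.

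The libraries held between 49849258 and 75087194 counts, with fewer counts in the treated library of each line. Levels are given as CPM, the counts of a gene relative to the library total after edgeR's TMM scaling. *SMARCB1*, whose loss defines most AT/RT, was listed with 827 to 1394 counts, which does not show whether a protein was made. *MYC* was at 187 to 207 CPM untreated and 118 to 144 CPM treated. All 6 genes that mark dividing cells (*MKI67*, *TOP2A*, *CCNB1*, *CDK1*, *PCNA*, *MCM2*) fell with treatment (adjusted *p* under the threshold in edgeR), and their summed level went from 3679 to 3710 CPM in untreated to 187 to 204 CPM in treated cells. Summed macrophage markers were at 3.28 to 6.55 CPM and 6.12 to 9.36 CPM, with a positive log2 fold change in 5 of 7. Of these 7, 2 were called higher (*AIF1* and *CD163*) and 0 lower. *CD68* had 3 (BT-16) and 1 (CHLA-266) counts untreated and 0 in both treated libraries. Summed fibroblast and endothelium markers were at 4.04 to 9.03 CPM and 16.6 to 27.0 CPM, with 4 of 8 called higher. Of all genes tested, 16.1% were called higher and 19.1% lower. Of 335 olfactory receptor genes, which such cells are not known to use, 90 to 121 had a count in an untreated and 209 to 293 in a treated library. Their 95th percentile was at most 0.0849 CPM per kilobase untreated and 0.593 CPM per kilobase treated, whereas the lowest level of any of the 10 genes was 3.84 CPM per kilobase. The part that the loss of dividing cells or these low signals had in the values below was not tested. In these bulk libraries, fewer cells of one kind and less RNA per cell cannot be told apart.

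**Figure D1:**
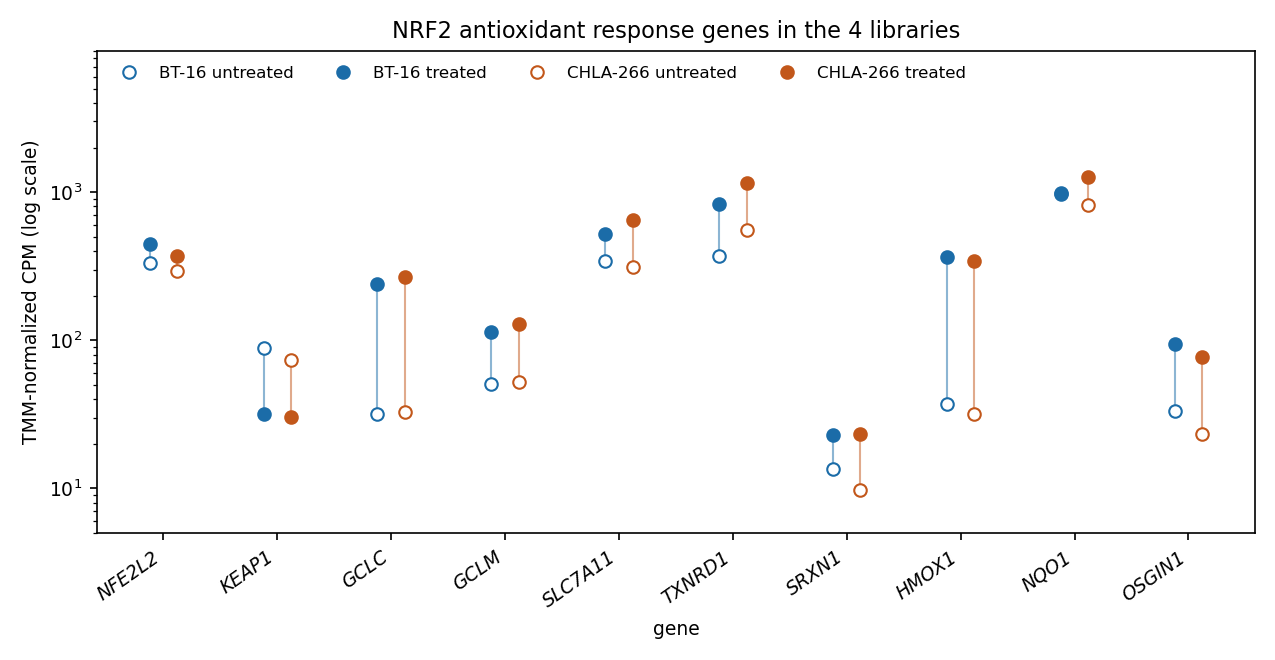
TMM-normalized CPM on a log axis for the 10 genes in the 4 libraries, with open circles for untreated and filled circles for treated cells and a line joining the 2 libraries of a cell line. *HMOX1* and *GCLC* span the longest distances, *KEAP1* is the gene whose treated points lie below the untreated ones in both lines, and the 2 points of *NQO1* in BT-16 (972 and 991 CPM) overlie each other.

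Among the regulators, *NFE2L2* RNA (chr2:177218667-177392756, minus strand, hg38) changed by less with treatment than *KEAP1* RNA. In BT-16 it stood at 334 CPM before and 446 CPM after treatment, and in CHLA-266 at 295 CPM before and 370 CPM after it. The treated library was the higher one in each line. The log2 fold change from edgeR was 0.38 (SE 0.17), near the median of 0.24 over all genes tested, and 0.24 without the treated library of BT-16. *KEAP1* (chr19:10486125-10503558, minus strand), the inhibitor of NRF2, went the other way, from 89.4 to 31.7 CPM in BT-16, and CHLA-266 went from 74.0 to 30.3 CPM. The 2 treated libraries were nearly equal, and each was below the untreated library of its line. Its mean went from 81.7 ± 10.9 to 31.0 ± 0.964 CPM (SD, n = 2 cell lines), a log2 fold change of -1.40 (SE 0.17).

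Glutathione is made from glutamate, cysteine, and glycine, and the enzyme of its limiting step is built from the catalytic subunit encoded by *GCLC* and the modifier subunit encoded by *GCLM*. *GCLC* (chr6:53497341-53616970, minus strand) stood at 31.7 CPM (BT-16) and 32.8 CPM (CHLA-266) without treatment, and at 240 CPM (BT-16) and 269 CPM (CHLA-266) after it. Its untreated levels were close to each other, and both treated levels were higher by 7.56-fold in BT-16 and 8.18-fold in CHLA-266. The log2 fold change was 2.98 (SE 0.17). *GCLM* (chr1:93885199-93909456, minus strand) was at 50.9 and 52.0 CPM in the untreated and at 114 and 130 CPM in the treated libraries of BT-16 and CHLA-266, respectively. The modifier subunit was thus also higher in both treated libraries, with a log2 fold change of 1.25 (SE 0.16).

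*SLC7A11* (chr4:138164097-138242349, minus strand), the cystine importer that supplies cysteine for glutathione, was already abundant without treatment. Its untreated level was 345 CPM in BT-16 and 313 CPM in CHLA-266, and its treated level was 523 CPM in BT-16 and 646 CPM in CHLA-266. The treated level was the higher one in each line, and the log2 fold change was 0.83 (SE 0.18). ATF4, which drives the amino acid stress response, also acts on *SLC7A11*, and its part in these values was not tested. Of 8 genes of that response, 2 were called higher (*DDIT3* and *CHAC1*) and 3 lower (*TRIB3*, *PSAT1*, *PHGDH*). The shares over all genes tested were 16.1% higher and 19.1% lower. *ATF4* itself had a log2 fold change of -0.43 (SE 0.16, adjusted *p* = 0.0632 in edgeR).

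In the thioredoxin branch, *TXNRD1* encodes the cytosolic selenoenzyme that reduces thioredoxin with NADPH, and *SRXN1* encodes sulfiredoxin, which repairs overoxidized peroxiredoxins. *TXNRD1* (chr12:104215779-104350307, plus strand) reached 370 CPM (BT-16) and 558 CPM (CHLA-266) in untreated cells, against 832 CPM (BT-16) and 1152 CPM (CHLA-266) in treated cells. The treated level was the higher one in each line, and the log2 fold change was 1.10 (SE 0.24). *SRXN1* (chr20:646615-653200, minus strand) was the least abundant of the 10 genes, with 934 (BT-16) and 598 (CHLA-266) counts before treatment and 1327 (BT-16) and 1221 (CHLA-266) counts after it. Scaled to depth, BT-16 went from 13.5 to 23.0 CPM, while CHLA-266 went from 9.71 to 23.5 CPM. The treated libraries were alike and the untreated ones less so, and the log2 fold change was 1.00 (SE 0.24).

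*HMOX1* (chr22:35380361-35394214, plus strand), the inducible heme oxygenase that splits heme into biliverdin, carbon monoxide, and iron, had the largest log2 fold change of the 10 genes. The untreated libraries were at 37.0 CPM (BT-16) and 31.8 CPM (CHLA-266), the treated ones at 363 CPM (BT-16) and 345 CPM (CHLA-266). The means were 34.4 ± 3.64 and 354 ± 12.3 CPM (SD, n = 2 cell lines), a difference of 10.3-fold, or 3.36 (SE 0.18) on the log2 scale. *OSGIN1* (chr16:83931311-83966332, plus strand), a target that restrains growth and promotes cell death when overexpressed, went from 33.4 to 94.2 CPM in BT-16, while CHLA-266 showed 23.2 and 77.6 CPM. Its log2 fold change was 1.60 (SE 0.21).

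*NQO1* (chr16:69706996-69726668, minus strand), the quinone reductase that is often used as a readout of NRF2, did not share this pattern. BT-16 held 972 CPM without and 991 CPM with treatment, while CHLA-266 held 818 CPM without and 1260 CPM with it. The treated library was the higher one in each line, but in BT-16 by only 1.02-fold, against 1.54-fold in CHLA-266. The log2 fold change was 0.33 (SE 0.19), and it was 0.16 without the treated and 0.21 without the untreated library of CHLA-266.

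The log2 fold changes of the 10 genes had a median of 1.05, beside 0.24 over all genes tested. Because this comparison chose the genes, nothing is read from the difference. Of the 10 genes, 9 had a positive and 1 a negative sign, beside 10350 positive signs among all 18066 genes tested. The signs of the 10 genes were the same under every alternative normalization, filter, and tool and without each library in turn. This too describes the values that chose the genes and is no support for a change.

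**Figure D2:**
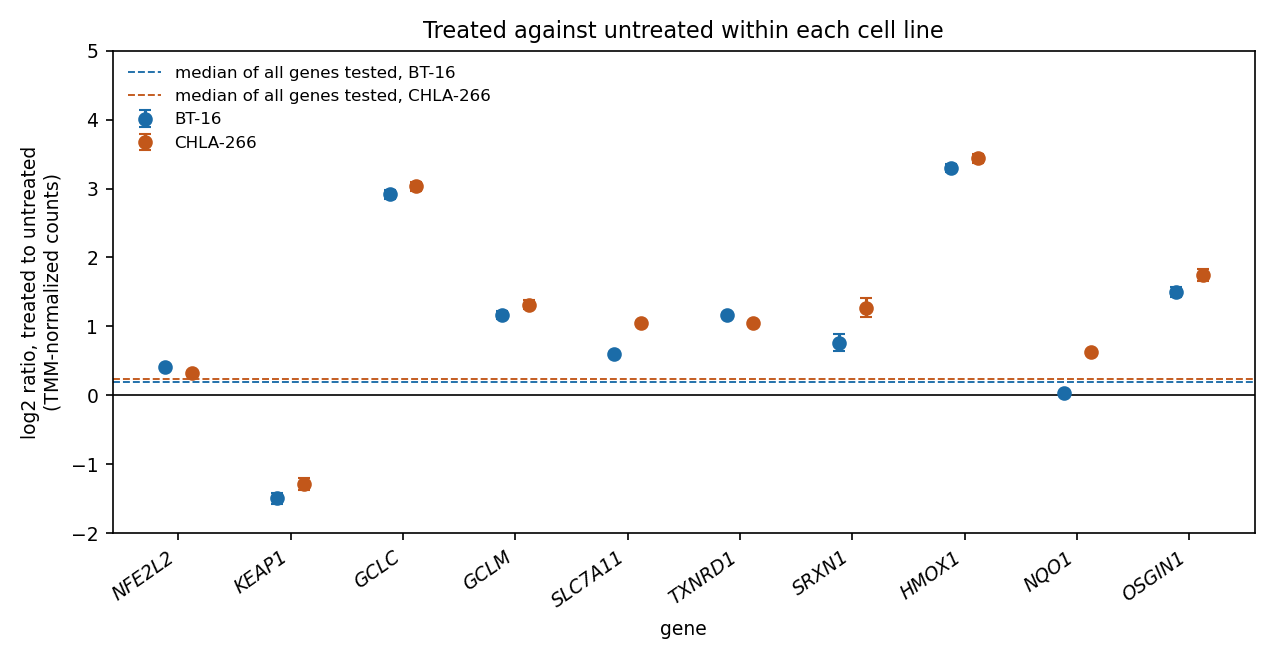
Log2 ratio of treated to untreated TMM-normalized counts within each cell line, with 95% intervals for counting error only and dashed lines at the median of all genes tested (0.19 in BT-16 and 0.24 in CHLA-266). The lines are close for *HMOX1* and *GCLC* and lie farthest apart for *NQO1*, *SRXN1*, and *SLC7A11*.

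The size of the response was compared within each cell line by the ratio of treated to untreated counts, with a 95% Clopper-Pearson interval that covers counting error only. *HMOX1* had a log2 ratio of 3.29 (3.24 to 3.35) in BT-16 and 3.44 (3.37 to 3.51) in CHLA-266. *GCLC* had one of 2.92 (2.85 to 2.98) and 3.03 (2.96 to 3.10). The ratios of *KEAP1* were -1.50 (-1.57 to -1.42) and -1.29 (-1.37 to -1.20). These 3 genes differed between the lines by at most 0.21 on the log2 scale. *NQO1* had a log2 ratio of 0.03 (0.01 to 0.04) in BT-16 and 0.62 (0.61 to 0.64) in CHLA-266. *SRXN1* had one of 0.76 (0.64 to 0.88) and 1.27 (1.13 to 1.42), and *SLC7A11* one of 0.60 (0.57 to 0.62) and 1.05 (1.02 to 1.07). In these 3 genes the ratio in CHLA-266 was the larger one by 0.45 to 0.60. The counting intervals of the lines overlapped only for *GCLC*. With counts halved, as if both reads of a pair had been counted, those of *HMOX1*, *KEAP1*, and *GCLM* overlapped too. Those of *TXNRD1*, *NFE2L2*, and *OSGIN1* still did not. A lack of overlap therefore does not set *NQO1*, *SRXN1*, and *SLC7A11* apart. *TXNRD1* and *NFE2L2* had the larger ratio in BT-16, by 0.13 and 0.09. With 1 library per line and condition, no test of a difference in response was possible.

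Levels of different genes were compared per kilobase of the exons of the canonical transcript. *NQO1* was the most abundant of the 10 genes in each library, at 386 (BT-16) and 324 (CHLA-266) CPM per kilobase without treatment and at 393 (BT-16) and 500 (CHLA-266) CPM per kilobase with it. It stood at or above the 99.0th percentile of all genes throughout. *HMOX1* moved from the sixth place among the 10 genes to the second in BT-16 (23.8 to 233 CPM per kilobase) and the third in CHLA-266 (20.5 to 222 CPM per kilobase). *GCLC*, the ninth untreated at 8.37 and 8.68 CPM per kilobase, was the fifth after treatment at 63.3 and 71.0. *KEAP1* went from the fifth place to the ninth, and *SRXN1* was the last in all 4 libraries at 3.84 to 9.29 CPM per kilobase. In untreated BT-16 cells, *SLC7A11* and *KEAP1*, at 35.8 and 34.8 CPM per kilobase, were neighbors that differed by less than the gap between the untreated libraries of either gene (32.4 and 28.9 CPM per kilobase in CHLA-266). These places hold for the canonical transcript. Counted over all annotated exons, *NFE2L2* dropped to the fifth or the sixth place, because its annotated exons cover 14975 bases against 2446 in the canonical transcript, treated *KEAP1* fell to the tenth place, below *SRXN1*, and *NQO1* kept the first.

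Ratios of a pair of genes within a library do not depend on the normalization between libraries, but their level depends on the lengths used. Their change with treatment does not. *GCLC* transcripts per *GCLM* transcript, the catalytic over the modifier subunit, numbered 0.803 (BT-16) and 0.814 (CHLA-266) without treatment, against 2.70 (BT-16) and 2.67 (CHLA-266) with it. The catalytic subunit was the less abundant transcript in both untreated libraries and the more abundant one in both treated libraries, a change of 3.36-fold and 3.28-fold. Over all annotated exons, a length tried after the data were seen, this ratio was 0.392 and 0.397 untreated and 1.32 and 1.30 treated. *NFE2L2* per *KEAP1* was 3.92 before and 14.7 after treatment in BT-16, with 4.17 before and 12.8 after it in CHLA-266, so that the transcript of the activator gained on that of its inhibitor by 3.77-fold and 3.06-fold. Over all annotated exons this ratio was 0.891 and 0.950 untreated and 3.36 and 2.91 treated, so that it began below 1. *HMOX1* per *HMOX2*, the constitutive heme oxygenase, was 0.533 before and 4.65 after treatment in BT-16, with 0.428 before and 4.02 after it in CHLA-266. The inducible form was thus the minor transcript before and the major one after treatment. *TXNRD1* per *TXN*, its substrate thioredoxin, changed by 2.17-fold and 2.84-fold, and *SLC7A11* per *SLC3A2*, the heavy chain of the cystine importer, by 1.46-fold and 1.77-fold. *SRXN1* remained rare beside its substrate *PRDX1*, at 0.00981 to 0.0106 transcripts per *PRDX1* transcript untreated and 0.0142 to 0.0208 treated.

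**Figure D3:**
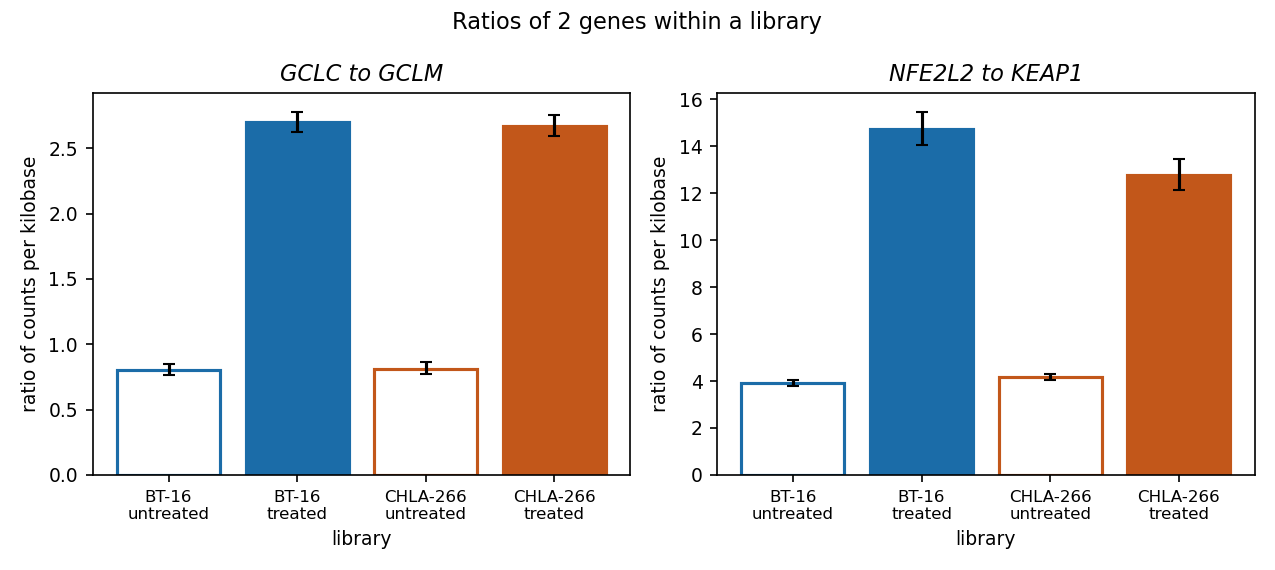
Ratio of counts per kilobase of *GCLC* to *GCLM* and of *NFE2L2* to *KEAP1* in each library, with 95% intervals for counting error only. Both ratios are higher in the treated library of each line, and *GCLC* to *GCLM* passes from below 1 to above 2.

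The cell lines were compared with each other in edgeR with treatment as a term, a contrast that did not enter the choice of the genes. The replicates of a line were here its untreated and its treated culture. One of the 10, *TXNRD1*, was called, whereas 2.30% of all genes tested were called in either direction. *TXNRD1* was higher in CHLA-266 by 0.53 on the log2 scale (SE 0.15, adjusted *p* = 0.0497 in edgeR). It was higher by 0.59 between the untreated and by 0.47 between the treated libraries, so that both pairs of libraries showed the difference. The call lay at the threshold: the adjusted *p* of *TXNRD1* was 0.0111 with DESeq2 and 0.00446 to 0.00780 with other scalings in edgeR, but 0.118 when only genes that reached 10 counts in all 4 libraries were kept, and 0.100 with edgeR's own filter. *OSGIN1* was lower in CHLA-266 by 0.40 (SE 0.16, unadjusted *p* = 0.0164, adjusted *p* = 0.281 in edgeR), in the untreated and in the treated pair. The other 8 genes had log2 differences between -0.23 (*NFE2L2*) and 0.11 (*GCLC*), with adjusted *p* of 0.711 or more in edgeR. *NQO1* and *SLC7A11* were lower in CHLA-266 without treatment (log2 differences of -0.25 and -0.14) and higher after it (0.35 and 0.31).

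**Figure D4:**
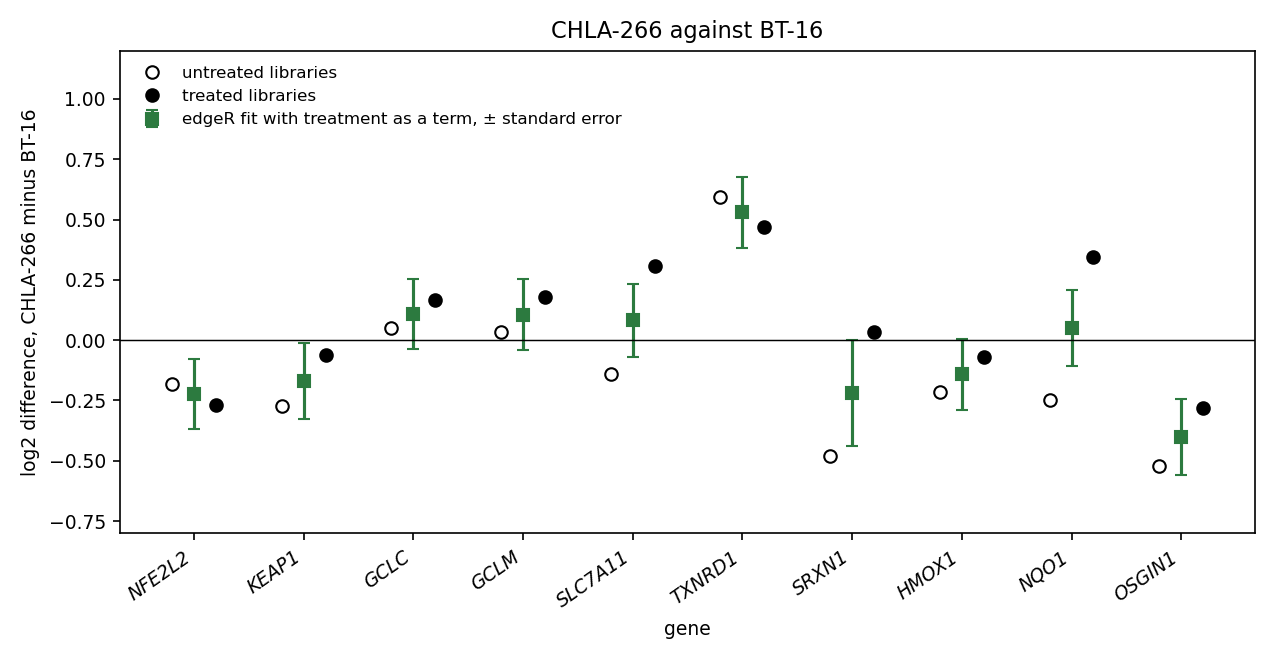
Log2 difference between CHLA-266 and BT-16 for the 10 genes in the untreated libraries (open circles), the treated libraries (filled circles), and the edgeR fit with treatment as a term (squares, ± SE). *TXNRD1* lies above 0 and *OSGIN1* and *NFE2L2* lie below 0 in both conditions, whereas *NQO1*, *SLC7A11*, and *SRXN1* cross 0.

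A further 91 genes that act with or beside these 10 were listed by role, of which *PRDX4* and *SOD2* were not analysed here and 89 were tested. With treatment, 20 of the 89 were called higher, 16 lower, and 53 neither in edgeR, beside 16.1% and 19.1% of all genes tested. Their median log2 fold change was 0.28, or 0.27 with genes at 0 in both untreated libraries set to their lower bound, and that of all genes was 0.24. The split of the calls depended on the scaling, as did that of all genes. It was 35 higher and 9 lower with upper-quartile factors, beside 4361 and 1895 of all 18066 genes tested. With library totals it was 29 higher and 10 lower, beside 3678 and 2353 of all genes. The lists were drawn up with earlier results of these libraries known and are no independent evidence of a direction.

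**Figure D5:**
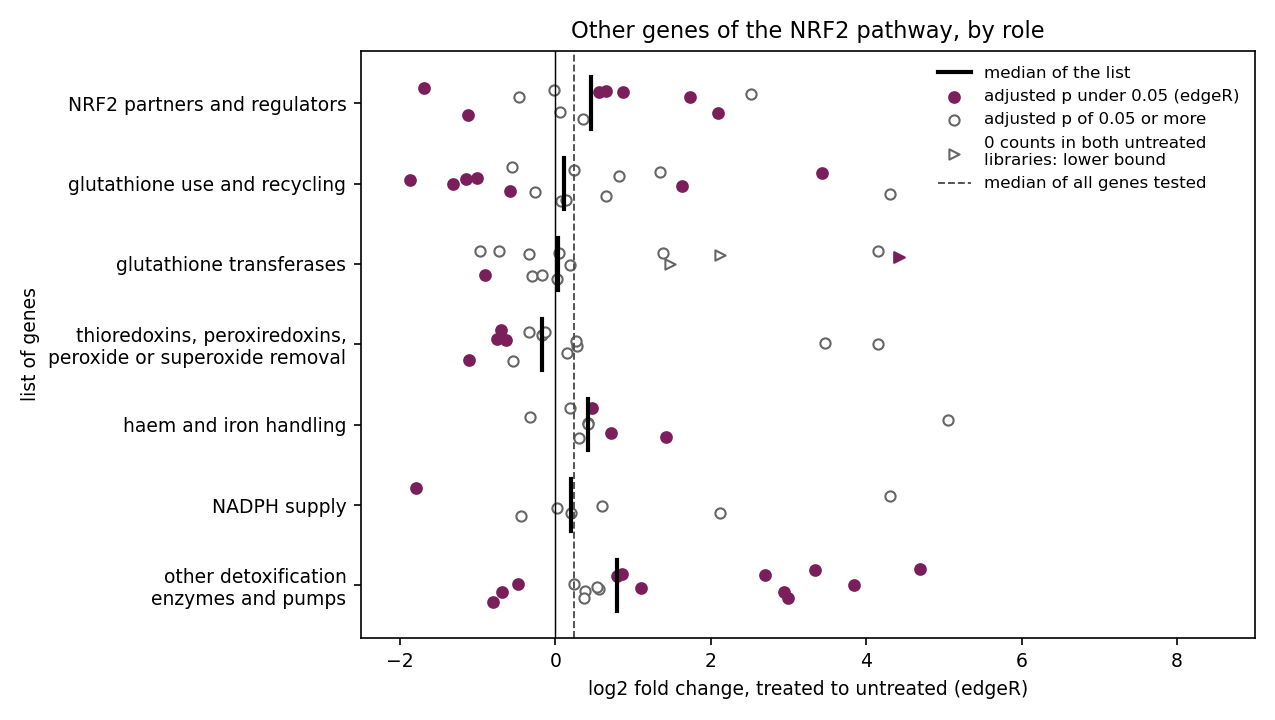
Log2 fold change, treated to untreated, of the other pathway genes by role, with filled symbols for an adjusted *p* under 0.05 in edgeR, triangles for lower bounds of genes at 0 counts in both untreated libraries, a bar at the median of each list, and a dashed line at the median of all genes tested (0.24). *CBR3*, with 2 counts in all, is not drawn. The list of thioredoxins and peroxiredoxins holds 4 lower and no higher calls, and the list of other detoxification enzymes and pumps holds 9 higher and 3 lower calls.

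Of 12 partners and regulators of NRF2, 5 rose and 2 fell, with a median log2 fold change of 0.46. *SQSTM1*, the autophagy receptor p62 that binds KEAP1 and carries it to autophagosomes, rose from 293 to 907 CPM in BT-16, with 239 and 863 CPM for CHLA-266 (log2 fold change 1.73, SE 0.18, adjusted *p* = 0.000245 in edgeR). Of the small MAF partners, *MAFF* rose by 2.09 on the log2 scale (SE 0.24, adjusted *p* = 0.000403 in edgeR) and *MAFG* by 0.65 (SE 0.16, adjusted *p* = 0.0133 in edgeR). *NFE2L1*, the related factor NRF1, rose by 0.88 and *BTRC*, an adaptor of a second ligase for NRF2, by 0.57, whereas *NFE2L3*, the related factor NRF3, fell by 1.12 (adjusted *p* of 0.00756, 0.0222, and 0.00277 in edgeR). Of the KEAP1 ligase, the RING subunit *RBX1* fell by 1.69 (SE 0.24, adjusted *p* = 0.00135 in edgeR), from 41.9 to 13.2 CPM in BT-16, with 31.8 and 9.62 CPM for CHLA-266. The scaffold *CUL3* had a log2 fold change of -0.47 (adjusted *p* = 0.0567 in edgeR, or 0.0105 when blocked by cell line). *BACH1*, the repressor that competes for the same elements and holds *HMOX1* off, had a log2 fold change of 0.06 (SE 0.16, adjusted *p* = 0.776 in edgeR), with 42.4 and 46.4 CPM for BT-16 and with 48.0 and 48.1 CPM for CHLA-266.

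Of 16 genes that use or recycle glutathione, 2 rose and 5 fell, with a median log2 fold change of 0.11. Those that fell included the peroxidases *GPX1* (-1.01), *GPX4* (-0.58), which removes lipid peroxides, and *GPX8* (-1.14), with adjusted *p* of 0.00645, 0.0216, and 0.00456 in edgeR. *CHAC2*, which degrades glutathione at a low basal rate, fell by 1.87 and *GGT5* by 1.31 on the log2 scale (adjusted *p* of 0.00275 and 0.0143 in edgeR). *CHAC1*, the stress-induced glutathione-degrading enzyme, rose by 1.63 on the log2 scale (SE 0.53, adjusted *p* = 0.0412 in edgeR). *GLRX*, glutaredoxin, rose from 4 to 71 counts in BT-16, with 6 and 25 counts for CHLA-266 (adjusted *p* = 0.0474 in edgeR, or 0.104 when blocked by cell line). Of 14 glutathione transferases, 1 rose and 1 fell. *GSTM3* went from 0 counts in both untreated libraries to 40 and 14 counts, at least 21.4-fold higher with a floor of 3 counts over the group (adjusted *p* = 0.0341 in edgeR, or 0.0603 when blocked by cell line). Its treated levels, 0.168 and 0.0654 CPM per kilobase, lay below the 95th percentile of the olfactory receptor genes in the same libraries, 0.593 and 0.474. *GSTO2* fell by 0.90 on the log2 scale (adjusted *p* = 0.0348 in edgeR). *GPX4* and *GSTO2* kept their sign but not their call with upper-quartile factors (-0.24 and -0.54), library totals (-0.36 and -0.66), and the filter of 10 counts (-0.40 and -0.71). *GSTP1*, the most abundant transferase per kilobase, had a log2 fold change of -0.17 (adjusted *p* = 0.533 in edgeR), with a positive sign under 3 alternatives of scaling or filter.

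Of 13 thioredoxins, peroxiredoxins, and enzymes that remove peroxide or superoxide, none rose in edgeR and 4 fell, with a median log2 fold change of -0.17. At an unadjusted *p* under 0.05, edgeR had 1 higher and 5 lower, and DESeq2 called 1 higher, *TXNIP*, named after its value was seen, and 4 lower. The 4 called in edgeR were *PRDX2* (-1.11, adjusted *p* = 0.0103 in edgeR), *PRDX3* (-0.75, adjusted *p* = 0.00703), *TXNRD2* (-0.69, adjusted *p* = 0.0294), and *TXN2* (-0.64, adjusted *p* = 0.0416). *PRDX3*, *TXN2*, and *TXNRD2* encode the mitochondrial peroxiredoxin, thioredoxin, and thioredoxin reductase. With upper-quartile factors, *PRDX3*, *TXNRD2*, and *TXN2* kept a negative sign and were no longer called, and *TXNRD2* and *TXN2* also lost their call with library totals and with the filter of 10 counts. *TXNRD2* went from 31.9 to 17.4 CPM in BT-16, with 32.3 and 22.3 CPM for CHLA-266, the reverse of its cytosolic counterpart *TXNRD1*. *PRDX1*, the most abundant gene of the list per kilobase, had a log2 fold change of 0.28 (adjusted *p* = 0.339 in edgeR). Of 7 genes of NADPH supply, which feeds both branches, none rose in edgeR and 1 fell, the mitochondrial *IDH2* (log2 fold change -1.79, SE 0.25, adjusted *p* = 0.00116 in edgeR). At an unadjusted *p* under 0.05, 1 was higher and 2 were lower in edgeR, and DESeq2 called 1 higher (*IDH1*, named after its value was seen) and 1 lower. *TKT*, the most abundant of them per kilobase, was at 983 and 1067 CPM for BT-16, with 823 and 1006 CPM for CHLA-266 (adjusted *p* = 0.387 in edgeR).

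Among 9 genes of heme and iron handling, 3 rose and none fell in edgeR. None was lower at an unadjusted *p* under 0.05 or called lower by DESeq2, which called 4 higher. The ferritin light chain *FTL* rose by 1.43 on the log2 scale (SE 0.20, adjusted *p* = 0.00117 in edgeR), the heavy chain *FTH1* by 0.71 (SE 0.22, adjusted *p* = 0.0350 in edgeR), and *FECH*, which inserts iron to make heme, by 0.47 (SE 0.15, adjusted *p* = 0.0435 in edgeR). *HMOX2* had a log2 fold change of 0.19 (adjusted *p* = 0.356 in edgeR). Of 18 other detoxification enzymes and pumps, 9 rose and 3 fell, with a median log2 fold change of 0.83. The aldo-keto reductases *AKR1C1*, *AKR1C2*, and *AKR1B10* had the smallest adjusted *p* among those that rose (0.000259, 0.000638, and 0.000945 in edgeR), with log2 fold changes of 3.34 for *AKR1C2* and 4.70 for *AKR1B10*, and carbonyl reductase *CBR1* rose by 1.11 on the log2 scale (adjusted *p* = 0.00152 in edgeR). *PTGR1* (-0.80), the efflux pump *ABCC4* (-0.68), and *UGDH* (-0.48) fell, with adjusted *p* of 0.00697, 0.0340, and 0.0408 in edgeR. *ABCC4* and *UGDH* kept their sign but not their call with upper-quartile factors (-0.32 and -0.14), library totals (-0.44 and -0.26), and the filter of 10 counts (-0.49 and -0.30). *UGDH* was also lost with the size factors of DESeq2 in edgeR (adjusted *p* = 0.0603) and in DESeq2 blocked by cell line (adjusted *p* = 0.0601). Ferritins, aldo-keto reductases of the AKR1C group, *GPX1*, and *PRDX1* have near-identical copies or pseudogenes that can share reads, so their values are uncertain.

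Profiles over the 4 libraries were compared by the Euclidean distance between log2 CPM values centered on their mean, over the 12620 genes that reached 10 counts in all 4 libraries. The genes most like *HMOX1* were *ACOT12* (distance 0.199), *MUC5B* (0.237), and *C19orf18* (0.261). The closest of the other 9 genes was *GCLC* (0.466), which ranked 25 by distance. The rises of *HMOX1* and *GCLC* chose the group, so nothing is read from their nearness. *ACOT12* went from 18 to 171 counts in BT-16, with 15 and 152 for CHLA-266, far fewer than *HMOX1*. The genes most like *NFE2L2* were *HM13* (0.0302), *PRKAB2* (0.0402), and *MSRB2* (0.0649). Among the 10, the most alike pair was *SRXN1* and *SLC7A11* (0.363), and the least alike was *KEAP1* and *HMOX1* (4.76). With 4 libraries in 2 conditions, such a distance mostly follows the change with treatment.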

How the data were processed

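Estimated counts per gene symbol, which the authors deposited without normalization and without genes of the sex chromosomes or repeatedly counted genes, were used for all tests, and 5 values in 2 genes that were not whole were rounded. Submitters' notes name bcl2fastq 2.20, STAR, and hg38. The log2 values that the authors deposited came from the variance-stabilizing transformation of DESeq2 and served as an alternative scale. Of 18449 symbols, 383 with a total of 0 were left out. edgeR 4.0.16 in R 4.3.3 (quasi-likelihood test, TMM, Benjamini-Hochberg adjustment) compared treated with untreated libraries without further terms, and the cell lines with treatment as a term. DESeq2 1.42.0 was an alternative. Calls had an adjusted *p* under 0.05. Scripts were tested on simulated counts. Their dispersion was below the common dispersion fitted here, 0.140 with treatment alone and 0.0712 with treatment and cell line. That run therefore checks the code and not the error rate in these libraries. The libraries of a line are paired by the line itself, and their deviations from the condition means correlated (r = 0.263 across 12620 genes). Counting of read pairs is not given in the sources used here. Of counts from 1 to 20, 20.5% to 34.2% were odd, so intervals are too narrow if both mates were counted. With 2 lines per condition, *p* values of the treatment comparison without further terms measure the spread between these 2 lines. With a term for treatment or for the line, they rest on how far the 2 lines differed in their response. Lengths and positions came from GENCODE 44 and promoters from RefSeq. The genes and lists were chosen with earlier results of these data known. Of the listed genes, all members could be named, along with up to 3 called genes per direction and the most abundant gene of each list, and whole directions of 5 or fewer. For *HMOX1* and *NFE2L2*, the 3 nearest profiles were named.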

Additional observations from a re-analysis of the deposited data

How the results depend on the processing

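The 10 genes kept the sign of their log2 fold change under every alternative tried. The range over alternatives other than left-out libraries was 3.27 to 3.71 for *HMOX1*, 0.37 to 0.73 for *NFE2L2*, 0.33 to 0.68 for *NQO1*, and -1.39 to -1.05 for *KEAP1*. Without each library in turn it was 3.26 to 3.48, 0.24 to 0.52, 0.16 to 0.49, and -1.53 to -1.26, respectively. Upper-quartile factors moved the median of all genes from 0.24 to 0.59 and library totals moved it to 0.46, and 69.7% and 61.0% of the calls were then higher, against 45.7% with TMM. With the cell line as a replicate block, 7522 of all genes and 45 of the other pathway genes were called, against 6364 and 36. Requiring an absolute log2 fold change of at least 1 left 4144 and 21 calls. Without each library in turn, 4546 to 5806 and 24 to 34 genes were called. Of the other pathway genes named as called, 13 lost the call without at least 1 library and kept their sign (*ABCC4*, *BTRC*, *CHAC1*, *FECH*, *FTH1*, *GLRX*, *GPX4*, *GSTM3*, *GSTO2*, *MAFG*, *TXN2*, *TXNRD2*, *UGDH*), with adjusted *p* of 0.0504 to 0.386 in edgeR. Of these calls, 12 were lost without untreated BT-16, 10 without untreated CHLA-266, 8 without treated BT-16, and 7 without treated CHLA-266. The block in edgeR made *ATF4* (adjusted *p* = 0.0170) and *IDH1* (adjusted *p* = 0.00670) calls. It changed no other call of a named gene outside the 10 genes beyond those given above. The 10 genes were given no calls in this comparison. *GSTP1* had a log2 fold change of 0.187 with upper-quartile factors, 0.0685 with library totals, 0.0201 with at least 10 counts in every library, and -0.37 to 0.056 without each library in turn. *PRDX1* ranged from -0.00277 to 0.525 without each library in turn.

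Between the cell lines, 415 genes were called in edgeR with treatment as a term. The count was 271 with DESeq2, 680 with its size factors, 689 with library totals, 130 with at least 10 counts in every library, and 161 with edgeR's filter. Without treatment in the model it was 0 in edgeR, with 92 genes at an unadjusted *p* under 0.05, since the spread then holds the treatment. Under this fit and both filters, 0 of the 10 genes were called, against 1, *TXNRD1*. Leaving out a library left no residual degrees of freedom for this contrast. The lowest count of the 10 genes was 598.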
